A study of Mus musculus with 12 samples.

Results

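Cholesterol and fatty acid synthesis was followed through 35 genes, taken by name from the 24296 gene symbols of an RNA sequencing study of mouse liver. Of these, 18 formed the sterol arm, from the first steps of the mevalonate pathway to the last steps of cholesterol synthesis with the regulators Insig1 and Srebf2. The other 17 formed the fatty acid arm, with the enzymes that make, elongate, desaturate and esterify fatty acids and the regulators Srebf1, Mlxipl and Thrsp. The study induced liver fibrosis in male C57/BL6N mice with carbon tetrachloride (CCl4), a solvent that hepatocytes convert into a toxic radical, and treated some of the mice with phloridzin, a plant glucoside, or with silibinin, a milk thistle flavonolignan that served as the positive control drug. The livers labelled as wild-type controls carried no named agent. The model group received CCl4 in olive oil into the abdomen at 5 mL/kg, 2 times per week for 8 weeks, and the silibinin and phloridzin groups received the same course with the drug from week 5. Each group had 3 livers, 12 in all, and the age of the mice is not given in the sources used here.

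Hepatocytes build cholesterol from acetyl-CoA through mevalonate, isoprenoid units, squalene and lanosterol, and build fatty acids from acetyl-CoA through malonyl-CoA. Both arms are transcribed under the SREBP factors, which are held in the endoplasmic reticulum by Insig proteins while sterol is plentiful; the product of Srebf2 acts mainly on sterol genes and the product of Srebf1 mainly on fatty acid genes. The fatty acid genes also follow feeding, through insulin acting on Srebf1 and through sugar acting on ChREBP, the product of Mlxipl, so they are known to be high in the fed liver and low in the fasted liver.

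The promoters of the members were read from RefSeq (build GRCm38.p6, 250 bases before to 50 bases after the start of each gene). Of the 35 members, 28 were matched, with 36 promoters among 32851; Fdps, Fdft1, Sqle, Scd1, Scd2, Fads1 and Dgat2 were not matched. The sterol regulatory element core TCACNCCAC, searched on both strands, was found in 1.24% of all promoters and in those of Hmgcs1 and Mlxipl. The NF-Y box CCAAT was found in 37.4% of all promoters and in 26 of the 36 member promoters. By arm, it was in 15 of 18 sterol promoters and in 11 of 18 fatty acid promoters. The E-box CACGTG was found in 7.15% of all promoters and in 6 member promoters, those of Dhcr7, Hsd17b7, Insig1, Sc5d, Elovl5 and Mlxipl. Those of 4 genes are printed: Hmgcs1 (chr13:119690101-119690400, plus strand), the sterol gene with the element core, which was not DE in any comparison, and the genes Idi1 (chr13:8885356-8885655, plus strand), Fasn (chr11:120824498-120824797, minus strand) and Thrsp (chr7:97417501-97417800, minus strand), each DE in at least 1 comparison. Capitals mark the NF-Y box, which reads ATTGG where it lies on the other strand, and in Hmgcs1 also the sterol element core. A match describes the letters of the window and was not tested as a binding site.
Hmgcs1: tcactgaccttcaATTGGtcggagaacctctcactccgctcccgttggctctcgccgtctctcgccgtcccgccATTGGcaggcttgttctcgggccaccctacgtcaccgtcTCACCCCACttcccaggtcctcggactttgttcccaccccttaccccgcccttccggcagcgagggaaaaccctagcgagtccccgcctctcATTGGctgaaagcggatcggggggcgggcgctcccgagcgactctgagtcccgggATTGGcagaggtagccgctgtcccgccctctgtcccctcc
Idi1: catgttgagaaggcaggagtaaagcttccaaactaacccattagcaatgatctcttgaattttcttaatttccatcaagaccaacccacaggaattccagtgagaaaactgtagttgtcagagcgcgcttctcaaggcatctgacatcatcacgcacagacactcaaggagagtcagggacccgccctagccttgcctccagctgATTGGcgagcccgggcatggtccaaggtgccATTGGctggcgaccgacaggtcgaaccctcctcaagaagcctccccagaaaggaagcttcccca
Fasn: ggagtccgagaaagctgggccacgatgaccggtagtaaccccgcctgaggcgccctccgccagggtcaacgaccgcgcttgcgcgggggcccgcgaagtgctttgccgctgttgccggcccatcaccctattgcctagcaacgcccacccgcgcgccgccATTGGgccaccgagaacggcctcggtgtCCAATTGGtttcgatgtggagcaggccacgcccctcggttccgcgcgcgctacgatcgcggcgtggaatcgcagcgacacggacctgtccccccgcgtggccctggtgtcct
Thrsp: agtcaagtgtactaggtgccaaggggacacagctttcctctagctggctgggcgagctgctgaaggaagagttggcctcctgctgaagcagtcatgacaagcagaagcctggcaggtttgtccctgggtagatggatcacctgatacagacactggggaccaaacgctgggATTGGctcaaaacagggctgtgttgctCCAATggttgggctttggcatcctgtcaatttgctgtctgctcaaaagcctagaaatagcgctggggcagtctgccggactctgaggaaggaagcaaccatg

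Levels were FPKM (fragments per kilobase of transcript, relative to the fragments mapped in the library), summed over the transcripts of each gene symbol. The steps between low values placed the depth, in units of 1000000 fragments, at 105 to 110 per control library, 83.7 to 101 in the model group, 107 to 111 in the silibinin group and 98.5 to 105 in the phloridzin group. A mean of at least 0.5 FPKM over the 12 livers was required for testing, which 13158 genes reached, 34 of the members among them. Gpam, an enzyme of the first step of glycerolipid synthesis, lay between 0.195 and 0.576 FPKM and was not tested. A gene was called differentially expressed (DE) when its limma p after Benjamini-Hochberg adjustment was below 0.05 and its log2 fold change on the log2(FPKM + 1) scale was above 1 or below -1. This scale understates the change of genes near 1 FPKM. Where a gene had an adjusted p below 0.05 at a smaller fold, it was counted separately. An unadjusted p below 0.05 was reached by 45.8% of all genes tested when model and control livers were compared, by 29.2% for silibinin and 27.8% for phloridzin against the model group, and by 3.75% between the drugs. The shares of silibinin and phloridzin against the controls were 21.5% and 24.6%.

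Liver markers were present in all 12 livers. The 6 hepatocyte markers, led by Alb, summed to 17255, 22319 and 16991 FPKM in the control livers and to 15824, 23947 and 27228 FPKM in the model livers. The drug-treated livers held 28070.1, 33282 and 17965 FPKM with silibinin and 21528, 28609.5 and 21358 FPKM with phloridzin. Cyp2e1, the enzyme that activates CCl4, measured 3679, 1373 and 3386 FPKM in the controls and 475, 489 and 548 FPKM in the model group, so every model liver was below every control liver (log2 fold change -2.35, SE 0.388, adjusted p = 0.00144); with only its most abundant transcript the gene was not DE. Col1a1, a chain of type I collagen, stood at 1.66, 1.04 and 1.48 FPKM in the controls and 46.4, 37 and 62.1 FPKM in the model livers (log2 fold change 4.35, SE 0.565, adjusted p = 0.000421). Cyp2e1 does not stand for all 6 hepatocyte markers. In the model group 4 of them had a higher value and 2 a lower one. Their median log2 fold change was 0.03, against 0.34 over all genes. In such bulk tissue, fewer cells of a type and less RNA per cell cannot be told apart.

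Some estimates and 1 control library stood apart. Fads2, the delta-6 desaturase, was listed at 0.0441 FPKM in control replicate 1 against 58.8 and 51.4 FPKM in the other controls, and its fitted difference rests on that value. Ttr, a hepatocyte marker, likewise stood at 39.8 FPKM in control replicate 1 and at 10.3 FPKM in phloridzin replicate 1, with 706 to 2530.1 FPKM elsewhere. Mvd was listed at 0.0604 FPKM in control replicate 2. Control replicate 1 also had the highest values of its group for many sterol genes and for the clock genes Dbp (4.21, 0.681 and 0.494 FPKM) and Per3 (4.11, 0.479 and 0.498 FPKM); the part of sampling time in this was not tested. For 3 members the summed level held mostly or largely transcripts that are not annotated as coding: coding transcripts made up 2.02% of the level of Fdft1, 41.5% of that of Mlxipl and 59.2% of that of Fasn. The Fdft1 values therefore describe a transcript with a retained intron more than the messenger for squalene synthase.

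All genes together also shifted between the groups. The median log2 fold change over the 13158 genes was 0.34 in the model group against the control group, -0.15 with silibinin against the model group and -0.11 with phloridzin against the model group. Scaling by median ratios between livers brought these medians to 0.03, 0.01 and 0.03. Of the DE genes, 89.7% were higher in the model group, and 56.3% with that scaling. The share was 18.6% under silibinin (44.0% scaled) and 17.1% under phloridzin (36.9% scaled). Each fold change of a member is therefore read beside the median over all genes, and calls that ended with this scaling are named.

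**Figure D1:**
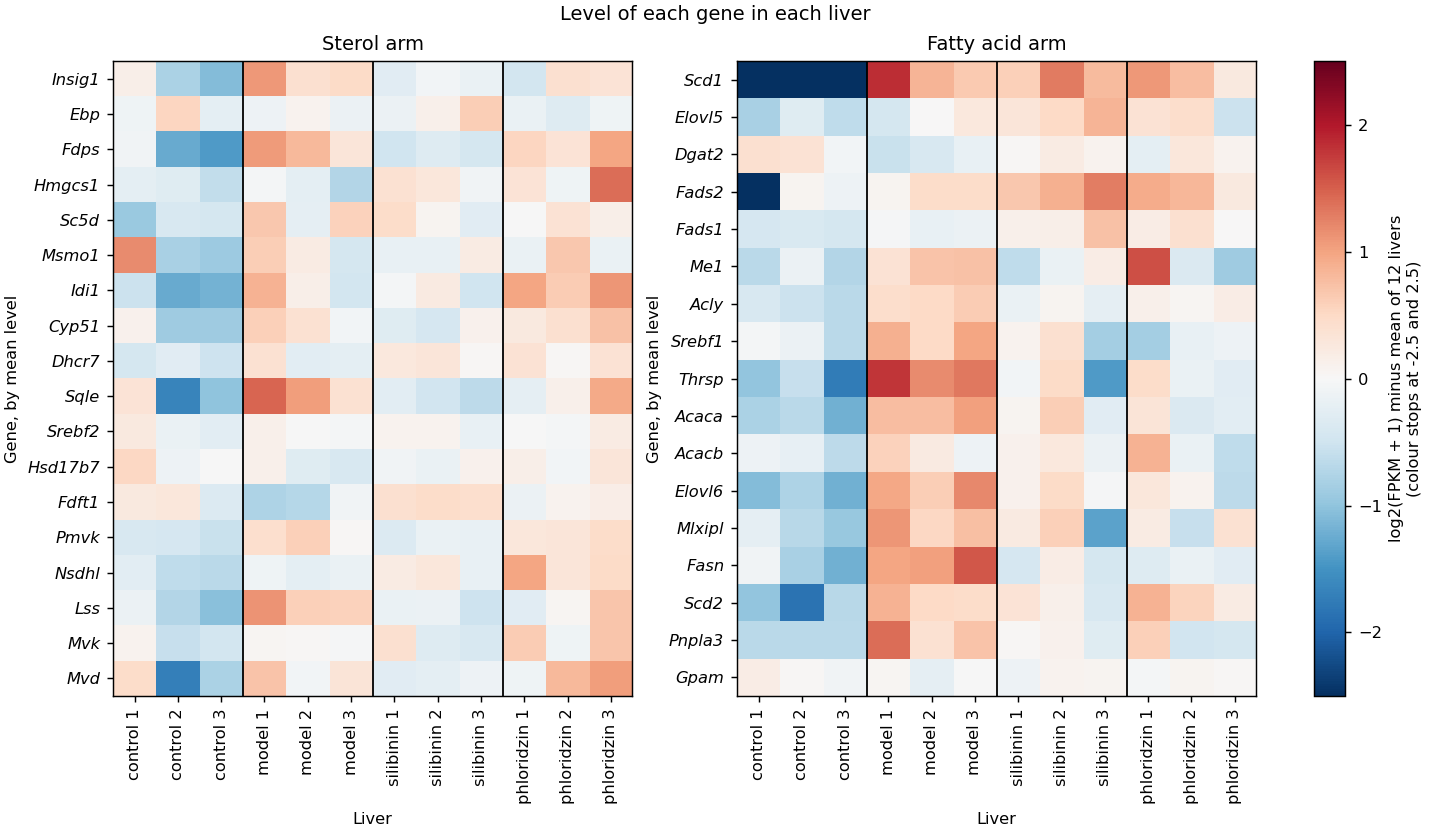
Level of each member in each of the 12 livers as log2(FPKM + 1) minus the member's mean over all livers, with sterol genes in the left panel and fatty acid genes in the right panel, ordered by mean level, and colours that stop at 2.5 in either direction. Most fatty acid genes, such as Scd1 and Thrsp, are below their mean in the control livers and above it in the model livers, but Dgat2 and Fads1 are below theirs in every model liver, and among the sterol genes control replicate 1 looks unlike the other controls.

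The model group was set against the control group to show how the pathway stood after 8 weeks of CCl4 in olive oil. Whether the controls received the oil is not stated, so CCl4 and oil cannot be told apart here. The fatty acid arm was higher: 10 of its 16 tested members were DE, all upward, where 9.42% of all genes tested were DE upward and 10.5% in either direction. The median log2 fold change of the arm was 1.46, against 0.34 over all genes. At any fold, 10 members were higher and 1 was lower, where 34.9% of all genes passed. With median-ratio scaling 7 of the 10 were still DE, namely Acaca, Elovl6, Fasn, Pnpla3, Scd1, Scd2 and Thrsp, and the median was 1.19. Scd1, the stearoyl-CoA desaturase that makes oleate, stood at 17.8, 23.5 and 21.1 FPKM in the controls and at 514, 256 and 223 FPKM in the model livers. No model liver came near the control range, and model replicate 1 was the highest of all 12 livers (log2 fold change 3.84, SE 0.325, adjusted p = 4.88e-05). Scd2, a second desaturase that the liver makes at low level, went from 0.954, 0.0829 and 1.38 FPKM to 6.1, 4.44 and 4.33 FPKM, again with no overlap (log2 fold change 1.78, SE 0.303, adjusted p = 0.00166).

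Of the enzymes that make the fatty acid chain, Fasn, Elovl6, Acaca and Acly were DE higher, while Acacb and Elovl5 were not called. Fasn, fatty acid synthase, measured 3.47, 1.71 and 1.06 FPKM in the controls and 8.42, 8.71 and 12.9 FPKM in the model livers, with every model liver above every control (log2 fold change 1.89, SE 0.281, adjusted p = 0.000857). Elovl6, which extends palmitate to stearate, went from 4.26, 5.51 and 3.85 FPKM to 20.8, 16 and 24.8 FPKM and did not overlap either (log2 fold change 1.95, SE 0.256, adjusted p = 0.000452). Acaca, the acetyl-CoA carboxylase that makes malonyl-CoA, had a log2 fold change of 1.74 (SE 0.252, adjusted p = 0.000725). Acly, which splits citrate into acetyl-CoA, had a log2 fold change of 1.06, and it fell short of the fold cutoff with median-ratio scaling (0.65) and without control replicate 3 (0.99). With its most abundant transcript alone the fold was larger but the test was not passed (1.77, adjusted p = 0.0633). Pnpla3, a lipase and acyltransferase of lipid droplets, was between 0.0556 and 0.0632 FPKM in the controls and between 1.19 and 3.44 FPKM in the model livers (log2 fold change 1.5, SE 0.308, adjusted p = 0.00435). The member with a lower value at any fold was Dgat2, which adds the last chain of triglyceride (139, 135 and 100.2 FPKM in the controls and 70.7, 78.9 and 92.5 FPKM in the model livers). Its log2 fold change of -0.61 passed the fold cutoff with median-ratio scaling (-1.03, adjusted p = 0.00374), and its adjusted p rose to at most 0.0786 without control replicate 1 or 2 or model replicate 1 or 2. The other 5 tested members of the arm were not called: Fads2, Me1, Acacb, Elovl5 and Fads1. Of these, Me1 was DE higher in a fit of those 2 groups alone or without phloridzin replicate 1 (1.12, adjusted p = 0.00886 and 0.0061).

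The regulators of the arm were higher too. Thrsp, a lipogenic regulator that responds to thyroid hormone and carbohydrate, went from 7.27, 10.0 and 3.85 FPKM to 55.7, 35.9 and 39.9 FPKM. The groups lay far apart (log2 fold change 2.53, SE 0.453, adjusted p = 0.00217). Srebf1 went from 24.8, 23.4 and 15.9 FPKM to 48.9, 37 and 51.7 FPKM and Mlxipl from 6.93, 4.76 and 3.85 FPKM to 19, 12.4 and 14.6 FPKM. Neither overlapped the controls, but both calls were close to the threshold. Srebf1 (log2 fold change 1.08, SE 0.321, adjusted p = 0.025) was not DE with median-ratio scaling (0.67, adjusted p = 0.142), with its most abundant transcript alone (0.34), or without control replicate 3 or model replicate 1 or 3 (log2 fold change 0.89 to 1.03, adjusted p at most 0.0873). Mlxipl (log2 fold change 1.42, SE 0.449, adjusted p = 0.0327) was not DE with that scaling (1.04, adjusted p = 0.0987), with no filter on low values, with the most abundant transcript alone, or without control replicate 2 or 3 or any 1 model liver (log2 fold change 1.26 to 1.55, adjusted p at most 0.0974). From its coding transcripts alone the log2 fold change of Mlxipl was 0.36 (adjusted p = 0.437).

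In the sterol arm, 5 of 18 members were DE in the model group, all upward, and 8 had an adjusted p below 0.05 at any fold, where 9.42% of all genes were DE upward and 34.9% passed at any fold. The median log2 fold change of the arm was 0.59, against 0.34 over all genes. A positive value was found for 15 of 18 members and for 9998 of the 13158 genes tested. With median-ratio scaling the median of the arm was 0.22, 10 of 18 values were positive and 2 members were DE, Fdps and Lss. With that scaling, Fdft1 (-0.95, adjusted p = 0.00914) and Hsd17b7 (-0.71, adjusted p = 0.0329) were lower at a smaller fold. Fdps, which joins isoprenoid units into farnesyl diphosphate, stood at 37.1, 16 and 14.2 FPKM in the controls and 83.9, 70.4 and 49.4 FPKM in the model livers. Lss, which closes the sterol ring to give lanosterol, stood at 5.82, 3.58 and 2.68 FPKM and 15.4, 10.4 and 10.2 FPKM. In both genes the lowest model liver was above the highest control, control replicate 1, and limma gave Fdps a log2 fold change of 1.65 (SE 0.328, adjusted p = 0.00373) and Lss one of 1.40 (SE 0.289, adjusted p = 0.00454). With its most abundant transcript alone, Fdps had a log2 fold change of 2.5 and was not DE (adjusted p = 0.245).

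The other 3 sterol members that rose depended on single livers. Sqle, the epoxidase that commits squalene to sterols, was at 17.5, 3.7 and 6.29 FPKM in the controls and 39.2, 29.2 and 18.1 FPKM in the model livers (log2 fold change 1.73, SE 0.473, adjusted p = 0.0173). Insig1, the retention protein of the SREBP factors and itself one of their targets, was at 105, 54.9 and 44.8 FPKM and 204, 125 and 134 FPKM (log2 fold change 1.23, SE 0.329, adjusted p = 0.0159). Idi1, the isomerase of isoprenoid units, was at 14, 8.01 and 8.59 FPKM and 38.9, 23.1 and 14.8 FPKM (log2 fold change 1.19, SE 0.329, adjusted p = 0.0184). In each, control replicate 1 was the highest control, model replicate 1 the highest model liver, and the groups did not overlap. None of the 3 was DE with median-ratio scaling (adjusted p = 0.0705, 0.112 and 0.0938) or without control replicate 2, control replicate 3 or model replicate 1. Over the fits that left out 1 liver, the log2 fold change ran from 1.29 to 2.28 for Sqle, from 0.98 to 1.58 for Insig1 and from 0.84 to 1.51 for Idi1. The count of DE sterol members was 7 without control replicate 1, with Cyp51 and Mvd added, 3 without control replicate 2 or 3, namely Fdps, Lss and Sc5d, and 2 without model replicate 1.

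The start of the sterol pathway and its main regulator showed no such difference. Hmgcs1, the synthase that supplies the mevalonate pathway, stood at 30.8, 29.5 and 23.5 FPKM in the controls and 35.5, 30.6 and 21.8 FPKM in the model livers. Srebf2 stood at 17.6, 13 and 12.1 FPKM and 16.1, 14.7 and 14.2 FPKM. The groups overlapped in both genes, with log2 fold changes of 0.05 (SE 0.333) and 0.08 (SE 0.151) and adjusted p = 0.924 and 0.697; both values were below 0 with median-ratio scaling (-0.36 and -0.31). A p that misses the threshold does not show that values did not differ. Msmo1, a demethylating enzyme of late sterol synthesis, had its highest level of all 12 livers in control replicate 1 (67.2, 16.1 and 14.9 FPKM in the controls, 44.7, 33.6 and 21 FPKM in the model livers). Sc5d, Cyp51 and Pmvk were the members with an adjusted p below 0.05 at a smaller fold, with log2 fold changes of 0.93, 0.86 and 0.81; none of these kept an adjusted p below 0.05 with median-ratio scaling (adjusted p = 0.185, 0.30 and 0.0692). Sc5d also lost it without control replicate 1, model replicate 1 or model replicate 3 (at most 0.0775), and Cyp51 without control replicate 2 or 3, model replicate 1 or 2, or silibinin replicate 1 (at most 0.125). Both were DE in other fits: Sc5d with its most abundant transcript alone (adjusted p = 0.0294) and without control replicate 2 or 3 or model replicate 2 (log2 fold change 1.00 to 1.21), and Cyp51 without control replicate 1 or model replicate 3 (1.2 and 1.04).

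**Figure D2:**
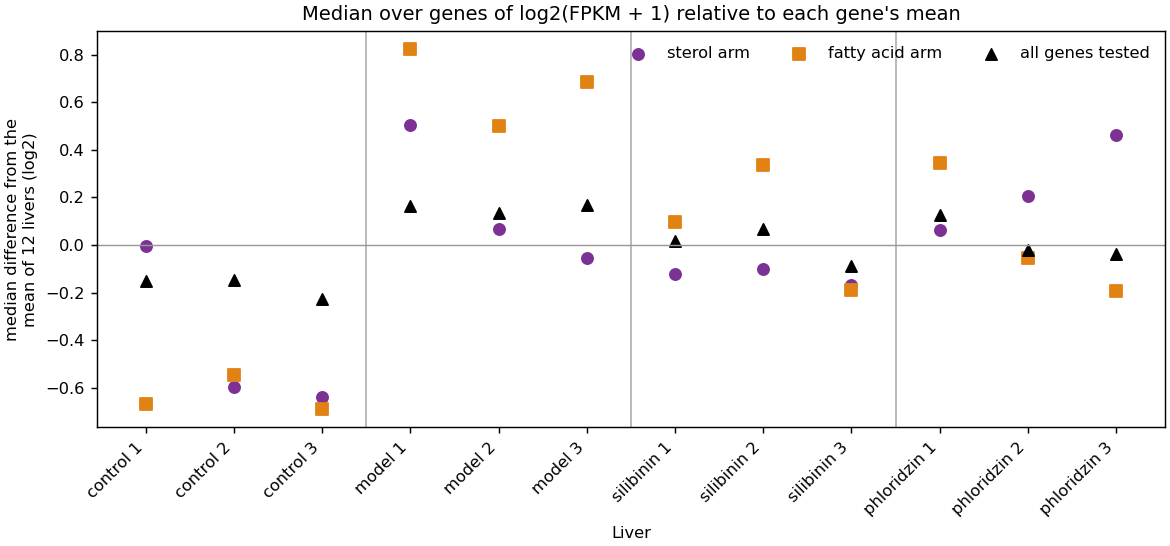
Median over the 18 sterol genes, the 16 tested fatty acid genes and all 13158 genes of log2(FPKM + 1) minus each gene's mean over the 12 livers, 1 point per liver. The fatty acid arm lies at -0.67, -0.55 and -0.69 in the controls and at 0.82, 0.50 and 0.69 in the model livers, while the sterol arm lies at -0.00 in control replicate 1 and at -0.60 and -0.64 in the other controls.

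Liver by liver, the arms parted. In the plot of arm medians the sterol arm stood at 0.51, 0.07 and -0.06 in the model livers, -0.12, -0.10 and -0.17 in the silibinin livers and 0.06, 0.21 and 0.46 in the phloridzin livers, on the log2 scale. The fatty acid arm stood at 0.10, 0.34 and -0.19 in the silibinin livers and 0.35, -0.06 and -0.19 in the phloridzin livers, below all 3 model livers. The same median over all genes was -0.15, -0.15 and -0.23 in the controls, 0.16, 0.13 and 0.17 in the model livers, 0.02, 0.07 and -0.09 in the silibinin livers and 0.12, -0.02 and -0.04 in the phloridzin livers. Thus the model livers stood above the 9 other livers in the fatty acid arm and, by a smaller margin, over all genes, whereas in the sterol arm they overlapped control replicate 1 and the phloridzin livers. The difference between the arms was not tested.

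Silibinin was set against the model group to show what the positive control drug changed. In the fatty acid arm, 2 of 16 members were DE, both lower, and 3 had a lower value at any fold, where 3.25% of all genes were DE downward, 4.0% in either direction and 14.1% passed at any fold. The median log2 fold change of the arm was -0.68, against -0.15 over all genes. It was -0.47 with median-ratio scaling and -0.45 without silibinin replicate 3. Fasn measured 2.55, 4.44 and 2.51 FPKM with silibinin. All 3 livers lay below the model livers, and 2 of them within the control range (log2 fold change -1.41, SE 0.281, adjusted p = 0.00868). Thrsp measured 14.6, 21.7 and 5.16 FPKM, also below all model livers, with silibinin replicate 3 within the control range (log2 fold change -1.76, SE 0.453, adjusted p = 0.0269). The Thrsp call was not made in a fit of those 2 groups alone (adjusted p = 0.0602) or without any 1 model liver or silibinin replicate 1 or 3 (log2 fold change -1.90 to -1.23, adjusted p at most 0.0853). Acly was lower at a smaller fold (-0.63, adjusted p = 0.00797).

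Scd1 did not follow Fasn. It measured 216, 348 and 246 FPKM with silibinin, overlapping the model livers, and its log2 fold change was -0.22 (SE 0.325, adjusted p = 0.701). Scd2 measured 3.88, 3.2 and 1.92 FPKM and Elovl6 11.1, 14.7 and 9.94 FPKM, each below the model livers and above the controls, with adjusted p = 0.225 and 0.0829. Srebf1 measured 27.5, 34.5 and 14 FPKM and Mlxipl 9.87, 13.2 and 2.69 FPKM, both lowest in silibinin replicate 3, with adjusted p = 0.0867 and 0.185. None of these 5 genes passed the test. In Scd2, Elovl6 and Srebf1 no silibinin liver reached the model range. The share of all genes separated in this way was not counted, so this adds no support.

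In the sterol arm, 2 of 18 members were DE with silibinin, both lower, against 3.25% of all genes. The median was -0.22, against -0.15 over all genes, and ran from -0.36 without silibinin replicate 1 to -0.09 without silibinin replicate 3 and -0.03 without model replicate 1. Fdps measured 28, 31.5 and 29 FPKM and Lss 5.72, 5.85 and 4.3 FPKM, in both genes below every model liver. Limma gave Fdps a log2 fold change of -1.14 (SE 0.328, adjusted p = 0.0417) and Lss one of -1.03 (SE 0.289, adjusted p = 0.0378). Both calls ended with median-ratio scaling (adjusted p = 0.0958 and 0.0957), with no filter on low values and with the most abundant transcript alone, and that of Lss also from coding transcripts alone (adjusted p = 0.0636). Fdps was not DE without model replicate 1 or 2, any 1 silibinin liver or phloridzin replicate 2 (log2 fold change -1.19 to -0.98, adjusted p at most 0.128), and Lss not without control replicate 2, any 1 model liver, any 1 silibinin liver or phloridzin replicate 2 (log2 fold change -1.13 to -0.86, adjusted p at most 0.122). No sterol member was DE without model replicate 1 or 2, any 1 of the silibinin livers, or phloridzin replicate 2, and 3 were DE without control replicate 1, with Sqle added.

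Other sterol genes did not meet the DE rule. Sqle measured 11.2, 9.57 and 8.3 FPKM, below all model livers, with a log2 fold change of -1.42 that did not pass the test (SE 0.473, adjusted p = 0.071), although it did in a fit of those 2 groups alone (0.0269) and without control replicate 1 or 2 (0.0261 and 0.0496). Insig1 measured 77.7, 91.3 and 85.1 FPKM (adjusted p = 0.122) and Srebf2 15.6, 15.8 and 12.9 FPKM (adjusted p = 0.947). Hmgcs1 measured 47.7, 44.7 and 34.2 FPKM (log2 fold change 0.52, adjusted p = 0.336). At any fold 3 sterol members were lower, with Pmvk beside Fdps and Lss, and 1 was higher, the mostly noncoding Fdft1 (0.95, adjusted p = 0.0146). Pmvk did not pass without model replicate 1 or 2 or any 1 silibinin liver (at most 0.0919) or with median-ratio scaling (0.147), and Fdft1 not without model replicate 1 or 2 (at most 0.0587). With median-ratio scaling Fdft1 was the sterol member called DE (1.13, adjusted p = 0.00755) and the median of the arm was -0.01.

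**Figure D3:**
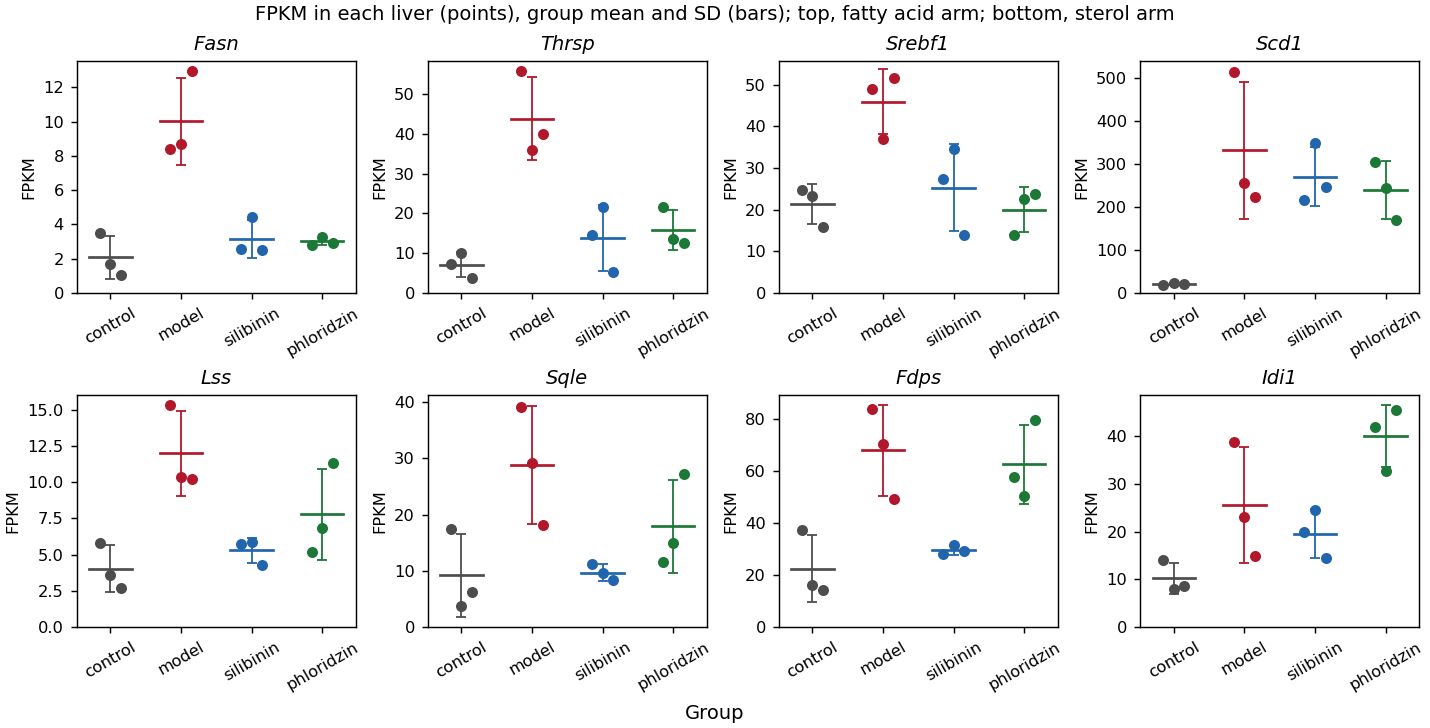
FPKM of 4 fatty acid genes (top: Fasn, Thrsp, Srebf1, Scd1) and 4 sterol genes (bottom: Lss, Sqle, Fdps, Idi1) in the control, model, silibinin and phloridzin groups, with 1 point per liver, the mean and the SD of 3 livers. Fasn and Thrsp are lower in both drug groups than in every model liver, Scd1 overlaps the model group in both, and Fdps and Idi1 are higher in every phloridzin liver than in every silibinin liver.

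Phloridzin was set against the model group in the same way. In the fatty acid arm, 3 of 16 members were DE, all lower, and 4 were lower at any fold, where 2.92% of all genes were DE downward, 3.52% in either direction and 12.9% passed at any fold. The median log2 fold change of the arm was -0.45, against -0.11 over all genes, and -0.27 with median-ratio scaling, with which Fasn was the 1 member DE. It was -0.76 without phloridzin replicate 1 and -0.31 without phloridzin replicate 3. Fasn measured 2.81, 3.26 and 2.94 FPKM, a narrow range below every model liver and within the control range (log2 fold change -1.44, SE 0.281, adjusted p = 0.00861). Elovl6 measured 12.7, 10.8 and 6.07 FPKM, also below the model livers (log2 fold change -1.02, SE 0.256, adjusted p = 0.0268). The Elovl6 call ended with median-ratio scaling (-0.85), in a fit of those 2 groups alone (adjusted p = 0.0983), and without model replicate 1 or 3 or phloridzin replicate 2 or 3 (log2 fold change -1.11 to -0.74, adjusted p at most 0.0846).

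Srebf1 measured 13.8, 22.5 and 23.7 FPKM, below every model liver and across the control range (log2 fold change -1.18, SE 0.321, adjusted p = 0.0368). This call was among the least stable: it ended with median-ratio scaling (adjusted p = 0.0645), with no filter on low values, with the most abundant transcript alone (-0.41), in a fit of those 2 groups alone, and without control replicate 2, any 1 model liver, silibinin replicate 1 or any 1 phloridzin liver (log2 fold change -1.33 to -0.95, adjusted p at most 0.101). The count of DE members in the arm was 1 without model replicate 1, model replicate 3, phloridzin replicate 2 or phloridzin replicate 3. Without phloridzin replicate 1 it was 5, with Acaca, Me1 and Pnpla3 added and Srebf1 lost. That liver held the highest level of Me1, the malic enzyme that supplies NADPH, at 142 FPKM against 35.5 and 24.5 FPKM in the other phloridzin livers. Thrsp measured 21.6, 13.6 and 12.5 FPKM, below all model livers, and missed the threshold (log2 fold change -1.42, SE 0.453, adjusted p = 0.0652). It passed in a fit of those 2 groups alone (adjusted p = 0.0367) and without silibinin replicate 2 or 3 (0.0494 and 0.0221). Scd1 measured 303, 244 and 168 FPKM and Scd2 6.1, 4.69 and 3.48 FPKM, and both overlapped the model livers (adjusted p = 0.453 and 0.918). Mlxipl measured 9.81, 5.24 and 11.1 FPKM (adjusted p = 0.289). Acaca was the member lower at a smaller fold (-0.96, adjusted p = 0.0324), but not without any 1 model liver, phloridzin replicate 2 or phloridzin replicate 3 (at most 0.117).

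In the sterol arm, limma called 0 of 18 members DE with phloridzin against the model group, with 3 at an unadjusted p below 0.05, where 27.8% of all genes reached it. The median log2 fold change was 0.09, against -0.11 over all genes. A positive value was found for 11 of 18 members and for 5119 of the 13158 genes tested. With median-ratio scaling the median of the arm was 0.26, against 0.03 over all genes, with 14 of 18 values positive. The median of the arm turned below 0 without model replicate 3 (-0.02). It was 0.27 without model replicate 1, 0.19 without phloridzin replicate 1 and 0.02 without phloridzin replicate 3. Over all genes the median in the same fits was -0.10, -0.10, -0.18 and -0.07. The arm thus lay above all genes in each of these fits, while its sign against 0 was not fixed. This difference from all genes was not tested. Fdps measured 57.8, 50.3 and 79.4 FPKM, Lss 5.2, 6.87 and 11.3 FPKM and Sqle 11.6, 15 and 27.2 FPKM. All 3 overlapped the model livers (adjusted p = 0.861, 0.206 and 0.392). Idi1 measured 42, 32.7 and 45.4 FPKM, with 2 of 3 livers above the model range (log2 fold change 0.72, adjusted p = 0.186). Hmgcs1 measured 46.3, 33.8 and 97.5 FPKM and was led by phloridzin replicate 3 (log2 fold change 0.87, adjusted p = 0.116). Insig1 measured 69, 126 and 121 FPKM (adjusted p = 0.30) and Srebf2 14.5, 14.1 and 17 FPKM (adjusted p = 0.942). The member with an adjusted p below 0.05 at a smaller fold was Nsdhl, a decarboxylating enzyme of late sterol synthesis (0.75, adjusted p = 0.0324); it did not pass without any 1 model liver, phloridzin replicate 1 or phloridzin replicate 3 (at most 0.0956). The comparisons of both drugs share the 3 model livers.

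**Figure D4:**
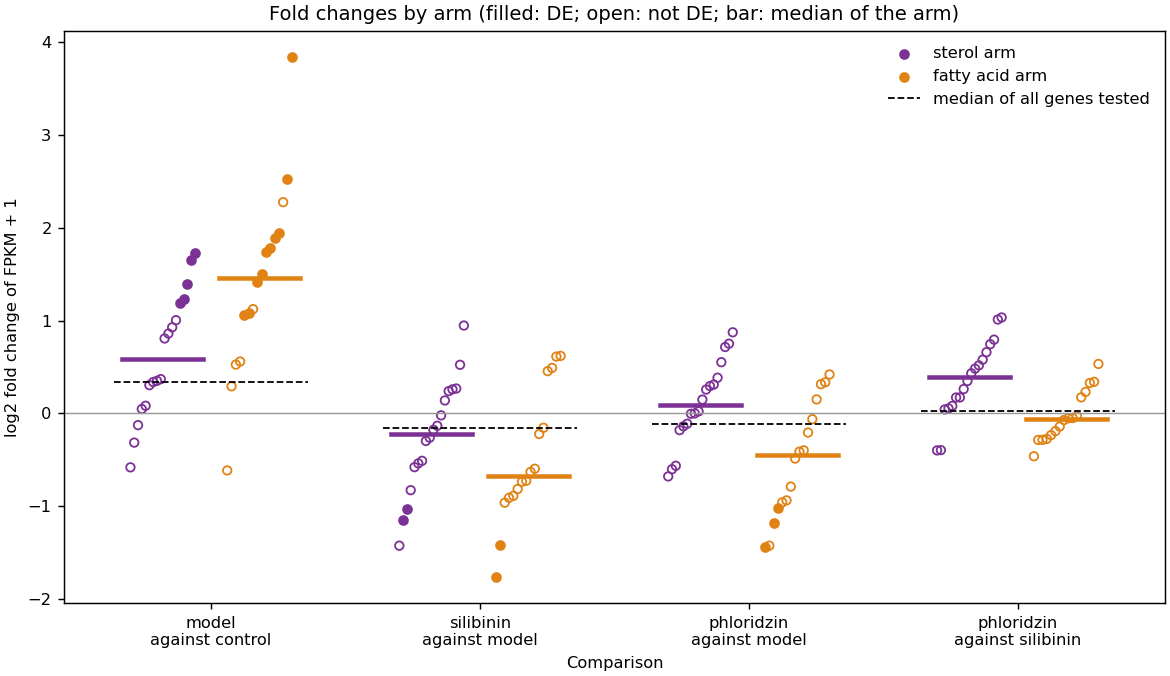
Log2 fold change on the log2(FPKM + 1) scale of each tested member in 4 comparisons, with sterol and fatty acid genes apart; filled points were DE, open points were not, bars mark the median of the arm and dashed lines the median of all genes tested. In the model group the fatty acid median lies at 1.46 and the sterol median at 0.59; with phloridzin against silibinin the sterol median is 0.39 and the fatty acid median -0.06, with no member DE.

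The drugs were compared directly, which tests the difference between their effects. Limma called 0 of 18 sterol members and 0 of 16 fatty acid members DE with phloridzin against silibinin, where 0.0228% of all genes were DE. At an unadjusted p below 0.05 there were 5 sterol members, 0 fatty acid members and 494 of the 13158 genes. Of the sterol members, 16 of 18 had a higher value with phloridzin, where 7394 of the 13158 genes did. The sterol median log2 fold change was 0.39, against 0.03 over all genes (0.36 with median-ratio scaling). The sterol median was 0.24 without phloridzin replicate 3. The fatty acid median was -0.06, and without 1 liver it ran from -0.26 (phloridzin replicate 1) to 0.02 (silibinin replicate 2). Fdps and Idi1 had the largest values (1.03, SE 0.328, and 1.01, SE 0.329), and in both every phloridzin liver was above every silibinin liver. Pmvk, Nsdhl and Cyp51, the other members of the 5, had log2 fold changes of 0.58, 0.48 and 0.66. No adjusted p of a member fell below 0.05, so none of these differences passed the test.

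Against the control group, each drug group still carried higher members. The median log2 fold change over all genes was 0.16 with silibinin and 0.18 with phloridzin. With silibinin, 4 of 34 members were DE, all higher, where 1.74% of all genes were DE upward and 1.98% in either direction: Scd1 (3.62), Elovl6 (1.21), Elovl5, which extends polyunsaturated chains (1.14), and Acaca (1.02). None was a sterol gene by limma, with 4 of 18 sterol genes at an unadjusted p below 0.05, where 21.5% of all genes reached it. Of these calls, Scd1 and Elovl6 remained with median-ratio scaling, no filter on low values, a mean of at least 5 FPKM, coding transcripts or the most abundant transcript, and Scd1 alone without any 1 control liver or without silibinin replicate 1 or 2. The count was 5 without phloridzin replicate 1, with Scd2 added, and 2 without model replicate 2, model replicate 3 or phloridzin replicate 2. With phloridzin, 5 of 34 members were DE, all higher, where 2.74% of all genes were DE upward and 3.02% in either direction. These were the sterol genes Idi1 (1.90), Fdps (1.54) and Nsdhl (1.10) and the desaturases Scd1 (3.43) and Scd2 (1.72). Limma gave 12 of 18 sterol genes an unadjusted p below 0.05 with phloridzin, where 24.6% of all genes reached it. The sterol median was 0.77 with phloridzin (0.56 with median-ratio scaling) and 0.36 with silibinin (0.19 with that scaling). Nsdhl was not DE with median-ratio scaling, nor Fdps with its most abundant transcript alone, and in a fit of those 2 groups alone only Idi1 and Scd1 were DE. The count was 3 without phloridzin replicate 1, with Idi1, Scd1 and Scd2 left, and Fdps was not DE without control replicate 2 or 3 either. Idi1, Fdps, Nsdhl, Scd1 and Scd2 were each higher in every phloridzin liver than in every control. These comparisons share the 3 control livers with that of the model group.

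Other genes of the sterol pathway and its control were counted beside the members. Among all genes, 10.5% were DE in the model group, 4.0% with silibinin and 3.52% with phloridzin. An unadjusted p below 0.05 was reached by 45.8%, 29.2% and 27.8% of all genes. Of 5 further sterol synthesis genes, limma called 0 (1 at an unadjusted p below 0.05) in the model group, 1 higher with silibinin and 0 (1 at an unadjusted p below 0.05) with phloridzin. The silibinin call was Acat2, the cytosolic thiolase at the head of the pathway (10.3 ± 4.43 FPKM in the model group and 23.3 ± 1.68 FPKM with silibinin, SD, n = 3); it ended with no filter on low values, with the most abundant transcript alone and without model replicate 2 or 3 or any 1 silibinin liver (log2 fold change 0.87 to 1.23, adjusted p at most 0.114). In the model group Lbr, a sterol reductase of the nuclear envelope, was higher just under the fold cutoff (0.95, adjusted p = 0.00352) and DE with a pseudocount of 0.1 (1.08) or without control replicate 1 (1.09), but it was 0.58 with median-ratio scaling. Of 7 genes that process or degrade SREBP components, limma called 1 higher in the model group, 0 (2 at an unadjusted p below 0.05) with silibinin and 0 (1 at an unadjusted p below 0.05) with phloridzin. The call was Erlin1 (1.01), whose call ended with median-ratio scaling (0.62) and without control replicate 2 or 3 or model replicate 1 or 2 (log2 fold change 0.82 to 0.98). Scap, which escorts the SREBP factors to the Golgi, had an adjusted p below 0.05 at a smaller fold in all 3 comparisons, lower in the model group (-0.50) and higher with silibinin (0.50) and phloridzin (0.47) than in the model group. With silibinin it did not pass without model replicate 1 or 2 or silibinin replicate 1 or 3 (adjusted p at most 0.0702), and with phloridzin not without model replicate 1 or 2 or phloridzin replicate 2 or 3 (at most 0.0979). These comparisons share the model livers.

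The clearest change among 10 genes of LXR signalling and sterol export was Abcg5, a subunit of the transporter that moves sterol into bile. It measured 8.78, 11 and 8.49 FPKM in the controls and 3.55, 2.26 and 3.74 FPKM in the model livers, with no overlap (log2 fold change -1.33, SE 0.192, adjusted p = 0.000712). With silibinin it measured 6.86, 10.2 and 7.32 FPKM and with phloridzin 11.2, 13.2 and 10.3 FPKM, above every model liver in both groups (log2 fold change 1.13, adjusted p = 0.00419, and 1.60, adjusted p = 0.000556). The silibinin call ended without model replicate 2 or silibinin replicate 2 (log2 fold change 0.96 to 0.97). In the model group Soat1, a sterol acyltransferase, was also DE (1.00), a call that ended with median-ratio scaling (0.68), from coding transcripts or the most abundant transcript alone, and without control replicate 1 or 3 or model replicate 1 or 3 (log2 fold change 0.93 to 0.97). No other gene of the 10 was DE in these 3 comparisons, where 10.5%, 4.0% and 3.52% of all genes were DE. With median-ratio scaling Abcg8, the partner subunit of Abcg5, was DE lower in the model group (-1.25, adjusted p = 0.00719). Unscaled it missed the fold cutoff (-0.96, adjusted p = 0.0256), which it passed without control replicate 1 or 3 or model replicate 1 (-1.17 to -1.04). Its adjusted p was not below 0.05 without control replicate 2 or model replicate 2 or 3 (at most 0.0892).

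Among 12 further fatty acid synthesis genes, limma called 2 higher and 2 lower in the model group, 1 higher and 1 lower with silibinin and 1 lower with phloridzin. The shares of all genes DE in these comparisons were 10.5%, 4.0% and 3.52%. Elovl7, an elongase of long saturated chains, measured 0.166, 0.0667 and 0.0227 FPKM in the controls, 2.79, 3.45 and 2.73 FPKM in the model livers, 0.355, 0.452 and 0.26 FPKM with silibinin and 1.02, 0.309 and 0.344 FPKM with phloridzin. The model livers stood above all 9 others (log2 fold change 1.88 against the controls, -1.55 with silibinin and -1.38 with phloridzin). Elovl3, an elongase that follows the clock and hormones in liver, moved the opposite way in the model group, from 25.5, 102 and 99.3 FPKM to 5.61, 5.83 and 14.1 FPKM (log2 fold change -2.89, SE 0.755, adjusted p = 0.0143), and was not DE without control replicate 2 (adjusted p = 0.0522) or control replicate 3. Mid1ip1, a partner of Thrsp that activates acetyl-CoA carboxylase, rose (1.22), but not with median-ratio scaling (0.84), with its most abundant transcript alone, or without control replicate 3 or model replicate 3 (log2 fold change 0.93 to 0.95). Oxsm, the condensing enzyme of mitochondrial fatty acid synthesis, fell in the model group (-1.05) and was higher with silibinin (1.15); both calls ended with its most abundant transcript alone and without model replicate 1 (-0.74 and 0.84), and the second also in a fit of those 2 groups alone. With phloridzin Oxsm lay at the fold cutoff (1.00, adjusted p = 0.0245), below it before rounding. It was DE with median-ratio scaling (1.15), with a pseudocount of 0.1 (1.11) or without model replicate 3 (1.31), and did not pass the test without model replicate 2 or phloridzin replicate 2 or 3 (adjusted p at most 0.0734).

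Of 5 genes that supply NADPH, led by Idh1, limma called 0 (3 at an unadjusted p below 0.05) in the model group, 0 (0 at an unadjusted p below 0.05) with silibinin and 0 (0 at an unadjusted p below 0.05) with phloridzin. In these comparisons 10.5%, 4.0% and 3.52% of all genes were DE, and 45.8%, 29.2% and 27.8% had an unadjusted p below 0.05. G6pdx, the dehydrogenase that opens the pentose phosphate pathway, was higher in the model group just under the fold cutoff (0.99, adjusted p = 0.0103; 0.66 with median-ratio scaling). It was DE from coding transcripts (1.06), with its most abundant transcript alone (1.07), with a pseudocount of 0.1 (1.26) and without control replicate 3 or model replicate 1 or 2 (1.02 to 1.10). Pgd, of the pentose phosphate pathway, stood at 78.2 FPKM in phloridzin replicate 1 against 8.84 and 8.46 FPKM in the other phloridzin livers, the same liver that was high for Me1. Without that liver Pgd was DE, higher in the model group (1.39, adjusted p = 0.00519) and lower with silibinin (-1.02) and phloridzin (-1.32). Of 7 tested genes of triglyceride assembly out of 9, limma called 0 (2 at an unadjusted p below 0.05) in the model group, 1 higher and 1 lower with silibinin and 0 (2 at an unadjusted p below 0.05) with phloridzin. These calls were Agpat2 (1.19), which was not DE from coding transcripts or the most abundant transcript alone, and Lpin3 (-1.01). The Lpin3 call ended with median-ratio scaling (-0.84), with no filter, from coding transcripts or the most abundant transcript alone, and without model replicate 1 or 3 or silibinin replicate 1 or 3 (log2 fold change -1.11 to -0.83, adjusted p at most 0.106). In the model group Agpat2 was lower at a smaller fold (-0.95, adjusted p = 0.00814) and DE with median-ratio scaling (-1.37) or without control replicate 1 or model replicate 2 (-1.12 and -1.22). Lpin3 was higher there at a smaller fold (0.88, adjusted p = 0.0265), and DE from coding transcripts (1.07), with a pseudocount of 0.1 (1.16) or without control replicate 1 or model replicate 2 (1.08 and 1.04), but its adjusted p was 0.113 with median-ratio scaling. Lpin3 also did not pass there without control replicate 2 or 3 or model replicate 1 or 3 (adjusted p at most 0.0935). Of 6 glycolytic targets of ChREBP, limma called 1 higher in the model group, 0 (0 at an unadjusted p below 0.05) with silibinin and 0 (1 at an unadjusted p below 0.05) with phloridzin. This was Tkfc (1.17, adjusted p = 0.0456), whose call ended with median-ratio scaling (0.75), with no filter, from coding transcripts or the most abundant transcript alone, and without any 1 control liver, any 1 model liver or silibinin replicate 1 or 2 (log2 fold change 0.94 to 1.3, adjusted p at most 0.143). With phloridzin Tkfc was not called (-1.03, adjusted p = 0.127), but without phloridzin replicate 1 it was DE lower (-1.56, adjusted p = 0.00601).

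Genes of the fasting response were counted because the fatty acid arm follows feeding. Of 8 such genes, limma called 3 higher and 1 lower in the model group, 1 higher and 2 lower with silibinin and 2 lower with phloridzin, where 10.5%, 4.0% and 3.52% of all genes were DE. The calls made in all 3 comparisons were those of Igfbp1 and Fgf21. Igfbp1, which insulin represses, measured 31.6, 21.9 and 29 FPKM in the controls, 321, 467 and 425 FPKM in the model livers, 35.7, 27.1 and 107 FPKM with silibinin and 40.4, 128 and 127 FPKM with phloridzin. Fgf21, a hepatic hormone of fasting and stress, measured 0.48, 0.776 and 0.345 FPKM, 10.2, 9.33 and 26.8 FPKM, 0.808, 0.455 and 0.735 FPKM and 4.05, 0.161 and 0 FPKM in the same order. For both genes the model livers stood above all 9 others, with log2 fold changes of 3.83 and 3.28 against the controls. With silibinin these were -3.06 and -3.15, and with phloridzin -2.19 and -3.03. The phloridzin call of Igfbp1 ended with median-ratio scaling (adjusted p = 0.0502), in a fit of those 2 groups alone and without model replicate 2 or 3 (log2 fold change -2.14 to -2.07, adjusted p at most 0.0725), and that of Fgf21 in a fit of those 2 groups alone.

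Other fasting genes differed in direction. In the model group Pdk4, which restrains pyruvate oxidation, was higher (1.66), and Angptl4, an inhibitor of lipoprotein lipase, was lower (-1.32). Against the model group Angptl4 was not called with silibinin (0.59) or phloridzin (0.29). From coding transcripts or the most abundant transcript alone it was DE higher with both drugs (1.29 and 1.18). Cpt1a, the gate of fatty acid oxidation, was higher with silibinin than in the model group (24.7, 68.7 and 32.4 FPKM in the model livers and 109.8, 146 and 155 FPKM with silibinin). Its log2 fold change of 1.80 was not DE without model replicate 1 or 3 or silibinin replicate 2 or 3 (log2 fold change 1.5 to 1.75, adjusted p at most 0.0717). Pck1, the most abundant gene of the list, ranged from 248 to 1436 FPKM within the controls alone. The feeding state of the mice is not given in the sources used here, and its part in the changes of the fatty acid arm was not tested.

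Of 11 clock genes, led by Clock, limma called 1 higher in the model group, 1 lower with silibinin and 1 lower with phloridzin, and in each comparison this was Per2. Over all genes, 10.5%, 4.0% and 3.52% were DE in these comparisons. Per2 measured 1.89, 1.06 and 0.77 FPKM in the controls, 5.2, 2.65 and 3.6 FPKM in the model livers, 1.02, 0.889 and 0.518 FPKM with silibinin and 0.462, 1.06 and 1.77 FPKM with phloridzin. The model livers were above all others (log2 fold change 1.10, -1.39 and -1.21 in the 3 comparisons). The call in the model group ended with median-ratio scaling (0.82) and without control replicate 3 or model replicate 1 (log2 fold change 0.90 to 0.95). With phloridzin it ended in a fit of those 2 groups alone and without model replicate 1 or phloridzin replicate 1 or 2 (log2 fold change -1.23 to -0.98, adjusted p at most 0.0626). With median-ratio scaling the clock gene DE in the model group was instead Nr1d1, a repressor of the clock, which was lower (-1.42, adjusted p = 0.0282; -1.07, adjusted p = 0.0744 unscaled). Per1 was not called from its summed transcripts (1.20, -1.19 and -0.67 in the 3 comparisons). With its most abundant transcript alone it was DE in each (1.89, -1.57 and -2.07), and in the model group also without control replicate 1 (1.66). The clock list summed to 74.1, 40.5 and 44.6 FPKM in the controls and 64.7, 47.7 and 58.4 FPKM in the model livers.

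Markers of the cell types of liver were counted beside the members. For each marker list, the shares of all genes DE were 10.5% in the model group, 4.0% with silibinin and 3.52% with phloridzin. The shares at an unadjusted p below 0.05 were 45.8%, 29.2% and 27.8%. Of the 6 hepatocyte markers, limma called 1 lower in the model group (Cyp2e1), 0 (1 at an unadjusted p below 0.05) with silibinin and 0 (0 at an unadjusted p below 0.05) with phloridzin. In the model group 4 of the 6 had a higher value and 2 a lower one (2 and 4 with median-ratio scaling). Of 8 stellate cell and myofibroblast markers, limma called 4 higher in the model group (Col1a1, Col3a1, Lrat and Col1a2), 0 (1 at an unadjusted p below 0.05) with silibinin and 0 (1 at an unadjusted p below 0.05) with phloridzin. Col1a2 was not DE from coding transcripts or the most abundant transcript alone, or without control replicate 2 or 3 or model replicate 1 (log2 fold change 1.01 to 1.51, adjusted p at most 0.0611). The list, led by Dcn, summed to 72.6, 67.8 and 77.5 FPKM in the controls and 220.3, 216 and 249 FPKM in the model livers. With silibinin the sums were 224, 256 and 118 FPKM and with phloridzin 306, 176 and 154 FPKM.

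Of 6 macrophage markers, limma called 1 higher in the model group (Lyz2, log2 fold change 2.16), 0 (0 at an unadjusted p below 0.05) with silibinin and 0 (0 at an unadjusted p below 0.05) with phloridzin. The list, led by Lyz2, summed to 124, 225 and 176 FPKM in the controls, 323, 514 and 431 FPKM in the model livers, 386, 500.0 and 362 FPKM with silibinin and 609, 588 and 317 FPKM with phloridzin. Of 3 tested lymphocyte markers out of 4, limma called 1 higher in the model group (Ptprc, 1.56), 0 (0 at an unadjusted p below 0.05) with silibinin and 0 (0 at an unadjusted p below 0.05) with phloridzin. This list, led by Ptprc, summed to 5.14, 7.09 and 7.47 FPKM in the controls, 17, 21.5 and 22.8 FPKM in the model livers, 13.3, 17.9 and 16.7 FPKM with silibinin and 22.3, 19.2 and 14.7 FPKM with phloridzin. In the sums of both lists every model liver and every drug-treated liver was above every control. Clec4f, a receptor of resident macrophages, overlapped between the controls (13.8, 23.3 and 23.6 FPKM) and the model livers (11, 28.7 and 24.6 FPKM).

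Of 4 endothelial markers, limma called 0 (1 at an unadjusted p below 0.05) in the model group, 0 (0 at an unadjusted p below 0.05) with silibinin and 0 (0 at an unadjusted p below 0.05) with phloridzin. The list, led by Kdr, summed to 23.4, 26 and 30.6 FPKM in the controls, 34, 39.1 and 33.7 FPKM in the model livers, 23.1, 41 and 16.8 FPKM with silibinin and 33, 46.3 and 33.3 FPKM with phloridzin. Of 2 tested cholangiocyte markers out of 4, limma called 0 (1 at an unadjusted p below 0.05) in the model group, 0 (0 at an unadjusted p below 0.05) with silibinin and 0 (1 at an unadjusted p below 0.05) with phloridzin. That list, led by Sox9, summed to 1.76, 2.98 and 2.18 FPKM in the controls, 3.93, 5.69 and 4.64 FPKM in the model livers, 4.55, 3.76 and 7.03 FPKM with silibinin and 6.0, 4.74 and 7.38 FPKM with phloridzin. Krt19, a keratin of bile duct cells, was higher in the model group at a smaller fold (0.73, adjusted p = 0.0194). There it was DE with a pseudocount of 0.1 (1.33) but did not pass with median-ratio scaling (adjusted p = 0.080). Nor did it pass without control replicate 1 or 2 or model replicate 2 or 3 (adjusted p at most 0.0629). It was DE with phloridzin against the controls (1.22, adjusted p = 0.00899) in each fit that left out 1 liver, but not in a fit of those 2 groups alone. Adipocytes also make fatty acids, and their markers were at or near 0: Plin1 and Lep were listed at 0 in all control and model livers, and the highest value of Cfd was 0.233 FPKM. Other genes of the lists above with an adjusted p below 0.05 at a smaller fold included Elovl1, Soat2, Abcg1, Adgre1, Csf1r, Dcn and Des, higher in the model group (0.57 to 0.95), and Lrat, lower with phloridzin (-0.83). With median-ratio scaling none of these 7 kept it, while Lrat did (-0.66, adjusted p = 0.0205). With any 1 liver left out, Elovl1 and Des kept it, but the other 5 did not in some fits (at most 0.133), nor did Lrat without model replicate 3 or phloridzin replicate 2 (at most 0.0627). Abcg1 and Adgre1 were DE without model replicate 1 (1.05 and 1.13), Adgre1 also without control replicate 2 (1.14), and both with a pseudocount of 0.1 (1.01 and 1.01). The part of stellate, immune, endothelial and biliary cells in the changes of the sterol and fatty acid genes was not tested.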

How the data were processed

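RNA of 12 mouse livers was sequenced after NEB Next Ultra library preparation; whether the libraries kept strand is not stated. The authors deposited FPKM per transcript. The submitters' processing notes name bcl2fastq, FastQC 0.11.5, HISAT2 2.1.0, StringTie 1.3.3b, DESeq 1.28.0 and build mm10. FPKM were summed per gene symbol, and genes with a mean of at least 0.5 FPKM were tested in limma 3.58.1 (R 4.3.3) on log2(FPKM + 1), with a trend in the variance, 1 fit of all 12 livers, 6 comparisons and Benjamini-Hochberg adjustment over 13158 genes. DE meant an adjusted p below 0.05 and a log2 fold change beyond 1. The fit was also tested on simulated data, and no result of that test is used here. Tables and figures were made in Python 3.11.15 with pandas 2.3.3, numpy 2.4.6 and matplotlib 3.10.9; coding transcripts came from GENCODE M21.

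The labels number 3 livers per group and give each a code of a letter and a number. They do not say whether that code names an animal, so p-values measure the spread between these samples. Reads of near-identical copies or antisense partners may be split differently by other estimates of transcript level. Depth was estimated from the smallest steps between low values, of which at least 98.9% were whole within 0.1 of a step. Between libraries of the same group, at most 1 value was identical (phloridzin replicates 1 and 3). The members and the 16 other lists were chosen with earlier results of these data known, so no set test was run. Overlap of values between groups is described for named genes, and its share over all genes was not counted. Levels in every liver are given for the DE members of comparisons that include the model group, up to 5 per direction and comparison. They are always given for Hmgcs1, Sqle, Insig1, Srebf2, Fasn, Scd1, Scd2, Srebf1 and Mlxipl. Acaca, Elovl5 and Nsdhl, DE in a drug group against the controls, are given without them. List genes are named where DE or as the most abundant, except some that are not reported here. Idi1, Pnpla3, Dgat2, Fads2, Me1, Mvd, Msmo1, Ttr, Dbp, Per3, Pgd and Clec4f were given liver by liver or in range after their values were seen, as were the Fdft1, Hsd17b7, Nsdhl, Pmvk, Cyp51, Sc5d, Abcg8, Nr1d1, Per1, G6pdx, Krt19, Lbr, Scap, Elovl1, Soat2, Abcg1, Adgre1, Csf1r and Des values. The alternatives were a pseudocount of 0.1, no filter, a mean of at least 5 FPKM, median-ratio scaling, coding transcripts, the most abundant transcript, the 2 compared groups alone, the replicate number as a block, no variance trend, no fold cutoff, and each liver left out.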

Additional observations from a re-analysis of the deposited data

How the results depend on the processing

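Of 22 calls of members in the 4 main comparisons, 10 held in every setting in which the gene was tested: Acaca, Elovl6, Fasn, Lss, Pnpla3, Scd1, Scd2 and Thrsp in the model group, and Fasn with each drug. No call changed direction. Median-ratio scaling ended 10 calls, the most abundant transcript 7, no filter 4, the 2 groups alone 3, the replicate block 3 (Fdps and Lss with silibinin, Srebf1 with phloridzin), coding transcripts 2, and leaving out model replicate 1 ended 10. In the sterol arm, the count of 5 in the model group became 2 with scaling and 8 with no fold cutoff, and the median 0.22 with scaling. The silibinin count of 2 became 0 with no filter, the most abundant transcript or the replicate block, and 1 with coding transcripts (Fdps). With scaling both calls ended and Fdft1 was called higher. With no fold cutoff the count was 4, with 3 lower and 1 higher. The phloridzin count of 0 became 1 with no fold cutoff. In the fatty acid arm, the silibinin count of 2 became 1 with a mean of at least 5 FPKM or the 2 groups alone, and the phloridzin count of 3 became 1 with scaling. Against the controls, the silibinin count of 4 became 2 with no filter, a mean of at least 5 FPKM, scaling, coding transcripts, the most abundant transcript or the replicate block, and the phloridzin count of 5 became 2 in the 2 groups alone. Some counts rose. A pseudocount of 0.1 gave 3 sterol members with silibinin (Fdft1 added, as higher) and 4 fatty acid members with phloridzin (Acaca added). It also gave 7 members with phloridzin against control (Cyp51 and Elovl6 added). The 2 groups alone gave 3 sterol members with silibinin (Sqle added) and 11 fatty acid members in the model group (Me1 added). With 1 liver left out, counts ran from 2 to 7 (sterol, model), 0 to 3 (sterol, silibinin), 7 to 11 (fatty acid, model), 1 to 2 (fatty acid, silibinin), 1 to 5 (fatty acid, phloridzin), 1 to 5 (silibinin against control) and 3 to 7 (phloridzin against control). The count stayed at 0 for sterol genes with phloridzin and for both arms between the drugs. The cause of these changes was not tested. Of 18 pairs of livers with the same number, 1 correlated above 0.1 (r -0.0909 to 0.101) and 2 of 12 livers correlated best with their own number, so the numbers were not read as pairs. The block also called Thrsp lower with phloridzin (adjusted p = 0.0355). With 3 livers per group, a lone liver can decide a call. The Pnpla3 values of the controls (0.0556 to 0.0632 FPKM) and the Scd2 value of control replicate 2 (0.0829 FPKM) rest on few fragments.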
